A study of Rattus norvegicus with 4 samples.

Results

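The first step of the ROE2 time course, from day 0 to day 3 at 37 °C, is described here across all genes of the array. ROE2 is an immortalized line of oral epithelial cells taken from tongue of a transgenic Wistar rat fetus 18 days old. Its transgene, pSVtsA58ori(-)-2, encodes a temperature-sensitive SV40 large T antigen, which the control cells carry too. All cells grew on collagen type I in a medium with 2% serum, insulin, transferrin, ethanolamine, selenite and 10 ng/ml EGF, first at 33 °C for 24 h. The day 0 array is the control, taken when the temperature was raised, and the day 3 array holds cells kept at 37 °C for 3 days. Arrays from days 6 and 9 complete the series of 4. There is 1 such line and each day is 1 Affymetrix array, so no difference has a replicate check and no p-value is given. What belongs to the day and what to its single array cannot be told apart. The series has no later array of cells kept at 33 °C. Warming itself, time in culture and the state of the large T antigen therefore cannot be told apart either.

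A gene took its brightest probe set, a group of short probes for 1 transcript. It was kept if its log2 value reached 6 on at least 1 of the 4 arrays. Of 14218 genes, 8802 (61.9%) passed. A gene is called higher or lower where the day 3 value differs from the day 0 value by 1 or more on the log2 scale, which is 2-fold. All values below are log2 levels or log2 differences unless a fold is named. "At least" marks a fold against the brightest bacterial control probe set where the gene itself was no brighter than that control on the dim array.

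Large T antigen of SV40 binds the retinoblastoma protein and p53 and so keeps cells dividing. Its temperature-sensitive form loses this function on sufficient warming, and how far it did so at 37 °C was not measured here. In a stratified oral epithelium, dividing basal cells rest on laminin through integrins and carry keratins 5 and 14. Cells that leave this layer switch to suprabasal keratins, build desmosomes, lipids and a cornified envelope, and secrete proteases and protease inhibitors. ATF4 is a transcription factor made when amino acids run short or protein folding fails, and its targets import and make amino acids and charge transfer RNAs.

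The 2 arrays correlated across genes at a Pearson r of 0.944, and the median gene differed by -0.05. Spike-in transcripts added in a fixed amount were a median of 0.14 higher on day 3 over 18 probe sets, with a range of 0.03 to 0.34. Centring the arrays on them moves the median gene to -0.19, and centring on a housekeeping list moves it to 0.02. A list median closer to 0 than these shifts therefore has no settled direction. RNA quality probes were alike on these 2 arrays: the 3' to 5' difference for beta-actin was 2.25 on day 0 and 2.44 on day 3. For GAPDH it was 0.10 and 0.04. Of 11 oral epithelial markers on the array, all 11 were at 6 or more on both days. None of 9 endothelial and 8 salivary gland markers reached 6 on either day, 1 of 14 fibroblast markers did on both (Col5a1, 8.45 and 7.07), and 1 of 11 skeletal muscle markers did on both (Myh1, 9.94 and 10.28). Of 13 leukocyte markers 2 were at 6 or more on day 0, Cd14 (10.66) and Laptm5 (6.30), and 4 on day 3, Cd14 (9.68), Laptm5 (6.15), Cd68 (6.54) and Mcpt8 (7.01). The pan-leukocyte marker Ptprc read 2.79 and 2.89, below the bacterial controls, as did 8 of the 13 leukocyte markers on day 0 and 9 on day 3.

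On day 3, 379 genes were higher and 189 lower than on day 0, out of 8802. That is 4.31% and 2.15% of the genes above the floor, the background for every count of members called higher or lower below. For counts of members above or below 0 the background is the spread of all genes. Their median was -0.05, with quartiles of -0.31 and 0.22, so a majority of all genes lay below 0. The higher genes were 66.7% of those called, but 48.5% with the arrays centred on the spike-ins and 75.2% centred on the housekeeping list. A difference of 4-fold or more was seen for 66 higher and 21 lower genes, and of 8-fold or more for 17 and 6. Most genes, 79.8%, stayed within 1.5-fold. The same rule called 73 genes higher and 141 lower from day 3 to day 6, and 22 and 52 from day 6 to day 9.

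**Figure D1:**
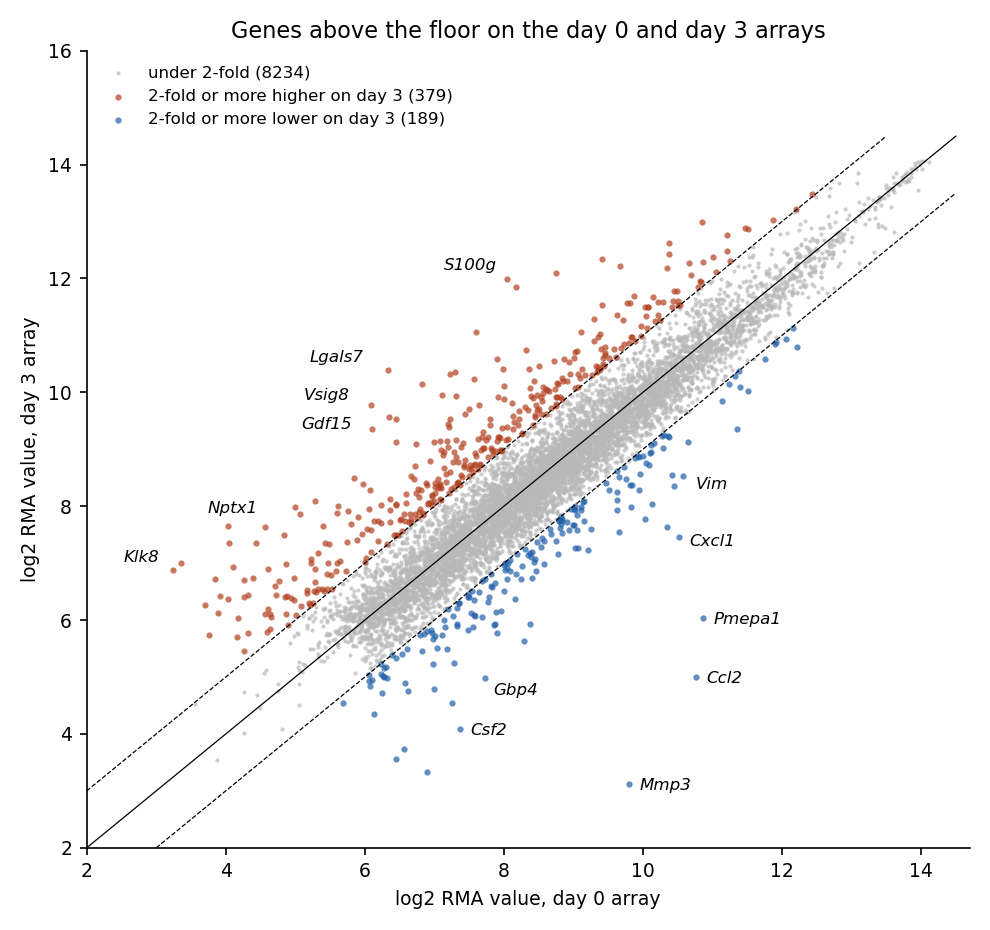
Log2 level of each of the 8802 genes above the floor on the day 0 array (x axis) and the day 3 array (y axis). Dashed lines mark 2-fold, red points are the 379 higher genes and blue points the 189 lower genes; the points farthest from the diagonal are lower genes such as Mmp3, Ccl2 and Pmepa1.

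The higher genes had a median of 7.41 on day 0 and 8.99 on day 3, against 8.48 and 8.46 for all genes above the floor. Of the 379, 82 were below 6 on day 0, but others were bright, such as Akr1b8 (12.43) and Tgm1 (11.51). Genes were called on these same arrays, so part of such a gap in level follows from the rule. The lower genes fell from a median of 8.40 to 7.02, with 52 of 189 below 6 on day 3. Other probe sets above the floor exist for 130 of the called genes, and of these 150 probe sets 94.0% moved the same way, 60.0% by 2-fold or more, and 0 went 2-fold the other way. Values near the threshold show how sharp it is: Cenpk (1.004) counted as higher and Duoxa1 (0.999) did not, while Hoxa3l1 (-1.0001) counted as lower and Ppcs (-0.998) did not. At the floor, Hipk3 was kept with a highest level of 6.0014, and Amph was left out at 5.9997.

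Genes known from stratified epithelium were among the largest increases. Lgals7, which encodes galectin-7, a lectin of stratified epithelia, read 6.34, 10.39, 11.53 and 11.36 on days 0, 3, 6 and 9, a difference of 4.05 on day 3. Vsig8, a gene for an immunoglobulin-domain surface protein, read 6.08, 9.79, 11.73 and 11.98, the third largest increase on day 3. Slpi, which encodes a secreted inhibitor of leukocyte proteases, read 8.75, 12.09, 11.97 and 12.46. For Slpi the day 3 level was already close to the later ones, whereas Lgals7 and Vsig8 went on rising to day 6.

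All 5 suprabasal keratins above the floor were higher, with a median difference of 2.55. Krt13, the main type I keratin of suprabasal oral mucosa, read 9.68, 12.23, 13.55 and 13.91. Krt23 went from 7.60 to 11.06, Krt78 from 5.06 to 7.86 and Krt10, a keratin of keratinizing layers, from 7.20 to 9.40. Krt1, the partner of Krt10, read 4.32 on day 0 and 5.78 on day 3 and passed 6 only on later days, so its difference of 1.45 lies between values below the floor. Among the 6 basal, wound and simple keratins, Krt15 was higher (9.11 to 11.06) and none was 2-fold lower. The basal pair Krt14 and Krt5 read 14.11 and 13.44 on day 0 and 14.04 and 12.92 on day 3, levels close to the top of the array's range.

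Of 24 cornified envelope genes above the floor, 9 were higher and 0 lower, and 23 were above 0, with a median of 0.84. Centred on the spike-ins, 7 were higher. Loricrin, the main envelope protein of keratinizing epithelia, went from 10.38 to 12.42, and Asprv1, a protease that processes filaggrin, from 10.84 to 12.99. Tgm1, the transglutaminase that crosslinks the envelope, read 11.51, 12.87, 12.85 and 12.82, a rise that was complete by day 3. The steroid sulfotransferase gene Sult2b1 went from 8.84 to 10.26. Anxa9, an annexin gene, went from 7.31 to 9.93, although its other probe set differed by 0.98. The median envelope gene stood at 10.81 on day 0, above the median of 8.48 for all genes above the floor.

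Transcription factors of epithelial differentiation were higher in 11 of 23 cases, with 0 lower and a median of 0.97. Sox7, an SRY-box factor, had the largest difference: it read 4.84, 7.49, 8.46 and 8.85. Prdm1, the zinc finger repressor Blimp-1, went from 6.99 to 9.13, and Elf5, an ETS factor of epithelia, from 4.87 to 6.99. The grainyhead factors Grhl3 and Grhl1, which act on barrier genes, went from 9.02 to 10.70 and from 9.01 to 10.60. Znf750, a factor of terminal differentiation, went from 9.39 to 11.02, and Cebpa, a factor that restrains proliferation, from 7.14 to 8.67. Tp63, the factor that maintains the basal layer, read 9.72 on day 0 and 10.48 on day 3, under 2-fold on this probe set, while its other probe set was 1.18 higher.

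Barrier lipid enzymes were higher in 6 of 15 cases, and all 15 were above 0. Centred on the spike-ins 4 were higher, and 5 with values below 6 set to 6. They included Smpd3, a sphingomyelinase (6.24 to 8.02), Dgat2, which makes triglycerides (8.43 to 10.20), and Fa2h, which hydroxylates fatty acids of sphingolipids (6.24 to 7.71). Surface proteases and inhibitors were higher in 6 of 22 cases, with 0 lower. Klk8, a kallikrein-related protease of the upper epithelium, read 3.25, 6.88, 7.88 and 7.29, at least 6.45-fold higher on day 3. Fetub, which encodes a protease inhibitor of the cystatin family, read 4.04, 7.35, 7.99 and 5.96, at least 8.95-fold higher on day 3. Klk6 went from 11.20 to 12.76 and Klk10 from 10.67 to 12.28, both kallikreins that were bright on day 0.

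Junction genes mostly stayed under 2-fold but leaned upward. Of 23 tight and adherens junction genes 19 were above 0, with a median of 0.53. Of 12 desmosome genes 10 were, with a median of 0.34. Tight and adherens junction genes were higher in 3 of 23 cases: Cgn (cingulin, 7.92 to 9.22), Nectin4 (8.13 to 9.58) and Cldn1 (claudin-1, 10.17 to 11.25). The mean over the probe sets of Cldn1 differed by 0.91, which is under 2-fold. Centred on the spike-ins, 2 of the 23 were higher. Of 12 desmosome genes, Dsc1, a desmocollin of upper layers, was higher (4.85 to 6.41) and the plakophilin gene Pkp2 was lower (7.04 to 5.50). The surface water channel genes Aqp3 (10.87 to 12.30) and Aqp9 (8.56 to 10.09) were higher, as was the adhesion gene Ceacam1 (9.82 to 11.57). Vsig10l was higher by 2.05 (8.36 to 10.41) on its brightest probe set but by 0.07 on the other.

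Antimicrobial and mucosal genes moved in both directions. Of 13 S100 and antimicrobial genes above the floor, 3 were higher and 2 lower. S100a8 and S100a9, the 2 chains of calprotectin, were lower on day 3, at 10.29, 9.03, 9.80 and 10.75 for S100a8 and 10.41, 8.55, 8.95 and 10.36 for S100a9. Both were near their control level again on day 9. Defb4, a beta-defensin, was higher and read 8.93, 10.53, 10.58 and 11.22. Of 17 galectin and mucosal surface genes, 7 were higher and 3 lower, but 0 were lower with values below 6 set to 6, since all 3 read below 6 on day 3. Lgals1, galectin-1, fell from 6.28 to 4.995, whereas Lgals7 rose, Lgals3bp fell from 6.83 to 5.46 and Gjb5, a connexin gene, from 6.96 to 5.83.

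Retinoid genes moved in both directions. Of 15 above the floor, 4 were higher and 1 lower, or 3 and 1 centred on the spike-ins. The retinol dehydrogenase genes Rdh12 (7.22 to 9.53) and Rdh11 (7.28 to 8.94), the alcohol dehydrogenase gene Adh7 (9.26 to 10.30) and the cytochrome gene Cyp2s1 (4.60 to 6.90) were higher. Cyp26b1, the enzyme that breaks down retinoic acid, was lower: it read 10.45, 8.35, 8.67 and 9.54, and its other probe set differed by -1.76.

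**Figure D2:**
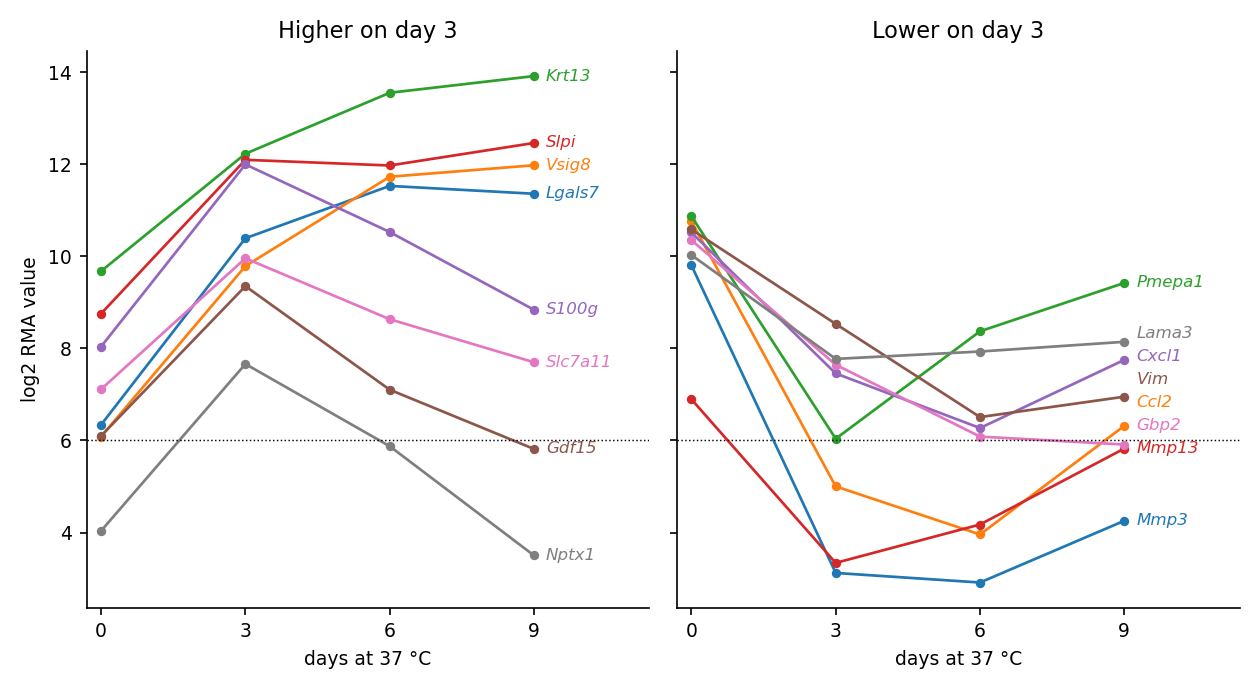
Log2 level on days 0, 3, 6 and 9 of 8 genes that were higher on day 3 (left) and 8 that were lower (right), 1 array per day; the dotted line is the floor of 6. Krt13, Vsig8 and Lgals7 kept rising after day 3, while S100g, Gdf15, Slc7a11 and Nptx1 were highest on day 3; of the lower genes, Pmepa1 rose again from 6.04 on day 3 to 9.42 on day 9.

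Several of the largest increases were in genes outside this programme. S100g, the gene of calbindin-D9k, a small calcium buffer, read 8.04, 11.99, 10.53 and 8.84, the second largest difference at 3.96. Selenop, the selenium carrier of plasma, read 8.17, 11.85, 12.28 and 11.75, while 17 of the 20 selenoprotein genes above the floor were below 0 and no other was called. Cdkn1c, the cyclin-dependent kinase inhibitor p57, read 7.22, 10.33, 10.04 and 8.79, and it was the 1 gene called among 27 of its list. Cdkn1a, the inhibitor p21 and a p53 target, read 10.62 and 10.91 on days 0 and 3. Cryab, the small heat shock protein alpha-B crystallin, went from 9.41 to 12.34 and stayed at 12.10 or above.

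Some genes that were below 6 on day 0 are known from other cell types. Nptx1, a neuronal pentraxin gene, read 4.04, 7.66, 5.87 and 3.50, at least 11.1-fold higher on day 3. Mcpt8, a mast cell and basophil protease gene, read 3.35, 7.01, 5.13 and 3.29, at least 7.03-fold higher. Snap25, a gene of synaptic vesicle fusion, read 5.98, 8.39, 6.47 and 5.30. Nptx1, Mcpt8 and Snap25 were all highest on day 3. The other neural and Schwann markers above the floor were highest later. Map2 rose from 8.51 on day 0 to 10.46 on day 3 and was highest on day 6 (10.77). Mbp differed by -0.52 on day 3 and Tubb3 by 0.21, and both were highest on day 9. The summed level of the 8 neural and Schwann markers on the array was 10.50 on day 0 and 11.32 on day 3, with 3 and 4 of them at 6 or more, and the summed level of 13 leukocyte markers was 10.86 and 10.24. The part of other cells in these differences was not tested.

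Of 46 genes of the ATF4 and amino acid response above the floor, 21 were higher, 0 lower and 45 above 0, with a median of 0.85, against 4.31% higher and a median of -0.05 over all genes. Centred on the spike-ins, 17 were higher. Gdf15, which encodes a stress-induced secreted factor, read 6.10, 9.35, 7.10 and 5.81. Slc7a11, the cystine transporter xCT, read 7.11, 9.96, 8.63 and 7.70. Vldlr, a lipoprotein receptor gene that ATF4 is known to raise, read 4.10, 6.94, 5.17 and 3.86, at least 6.69-fold higher on day 3, and its other probe set was 3.37 higher. In all of these the day 3 array was the highest of the 4.

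The factors of the response were higher in 6 of 10 cases. Trib3, a pseudokinase that feeds back on ATF4, read 7.65, 9.78, 8.89 and 7.80, and its other probe sets differed by 1.91 and 2.00. Atf3, an early stress factor, went from 7.08 to 9.14, Ddit3, which encodes CHOP, from 9.45 to 10.66, Nupr1 from 10.45 to 11.79 and Cebpb from 10.03 to 11.49. Atf4 itself read 12.67 on day 0 and 12.95 on day 3. Its control is known to lie largely in translation, which arrays do not measure. The kinases that start the response, Eif2ak3 (PERK) and Eif2ak4 (GCN2), differed by 0.27 and -0.31.

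Enzymes that make amino acids and one-carbon units were higher in 6 of 9 cases, and all 9 were above 0. Phgdh, the first enzyme of serine synthesis, read 9.40, 10.76, 9.97 and 7.98. Asns, asparagine synthetase, read 10.49, 11.79, 11.73 and 10.24, Mthfd2, of mitochondrial folate metabolism, 9.12, 10.41, 9.56 and 8.50, and Gpt2, an alanine transaminase, 6.45, 9.13, 8.50 and 7.12. Phgdh and Mthfd2 thus stood lower on day 9 than in the control. Transporters were higher in 3 of 8 cases, Slc7a11, Slc6a9 (glycine, 7.01 to 8.34) and Slc7a5 (large neutral amino acids, 9.42 to 10.50), and all 8 were above 0. The 11 aminoacyl-tRNA synthetase genes, which charge transfer RNAs, were all above 0 by 0.14 to 1.07, and 1 of them, Sars1, passed 2-fold.

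Chaperones and folding enzymes of the endoplasmic reticulum did not show the same pattern. Of 33 above the floor, 1 was higher, Atf6, a sensor of unfolded protein (9.36 to 10.45), and 26 were below 0, with a median of -0.18. The mean over the probe sets of Atf6 differed by 0.68, which is under 2-fold. Hspa5, the chaperone BiP, read 11.63 and 11.55, Hsp90b1 differed by -0.13, Calr by -0.51 and Xbp1 by -0.24. Herpud1, which lies in both lists, differed by 0.67.

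**Figure D3:**
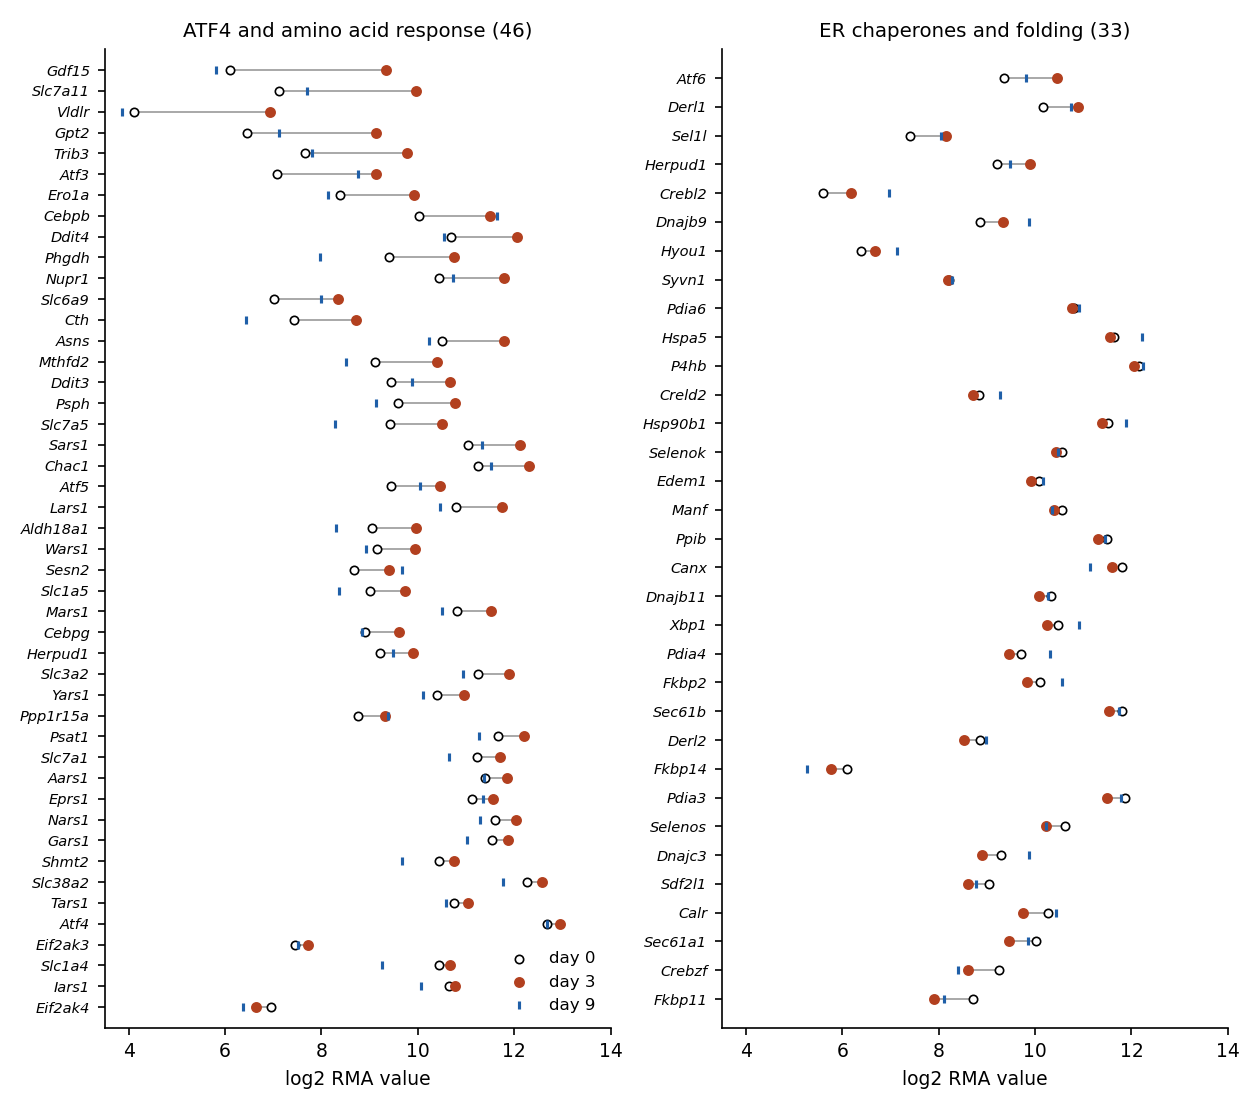
Log2 level on day 0 (open circles), day 3 (red) and day 9 (blue ticks) of the 46 genes of the ATF4 and amino acid response (left) and the 33 endoplasmic reticulum genes (right), each ordered by the day 3 minus day 0 difference. On the left 45 of 46 red points lie to the right of the open circles, on the right 7 of 33 do.

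The 3 promoters below show the composite C/EBP-ATF site, the element that ATF4 is known to bind, in genes of this group that were higher. The search was for TGATGNAA on both strands, in the 300 bases from 250 before to 50 after each gene's start in RefSeq's GRCr8 table, and capitals mark the match.
Trib3: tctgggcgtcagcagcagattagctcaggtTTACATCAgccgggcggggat
Chac1: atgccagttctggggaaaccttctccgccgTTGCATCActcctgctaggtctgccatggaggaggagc
Nupr1: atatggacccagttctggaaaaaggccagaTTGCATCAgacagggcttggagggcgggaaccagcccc
They lie at chr3:161275534-161275584 on the minus strand, chr3:126795934-126796001 on the plus strand and chr1:190645919-190645986 on the minus strand. The matches begin at -21, -167 and -55 from the start. Chac1, an enzyme that degrades glutathione, went from 11.25 to 12.30. These letters were found in 12 of the 41 ATF4 list promoters in the table (29.3%), in 1.83% of promoters of genes above the floor and in 3.82% of all 27457. Within the list they were in 3 of 19 promoters of the higher members and in 9 of 22 of the others, so the match did not single out the members that passed 2-fold. The endoplasmic reticulum list had 1 in 26.

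Growth factor signalling genes were mixed. Of 34 EGF receptor ligands and ERK feedback genes, 8 were higher and 1 lower, or 6 and 2 centred on the spike-ins. Errfi1, an inhibitor of the EGF receptor, went from 9.06 to 10.73. The ligand genes Tgfa (10.15 to 11.68) and Ereg (6.57 to 7.74) were higher, and Areg, the amphiregulin gene, was lower (9.81 to 8.37). The phosphatase gene Dusp1 went from 7.63 to 9.18. AP-1 is a pair of FOS and JUN family proteins: Fos read 6.45, 8.03, 8.72 and 8.06 and Fosl2 6.89, 8.38, 9.01 and 8.80, but the mean over the probe sets of Fos differed by 0.81. Jun (0.57), Junb (0.38), Jund (0.41) and Fosl1 (0.12) stayed under 2-fold.

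Secreted proteases and chemokines were among the largest decreases. Mmp3, stromelysin-1, read 9.80, 3.12, 2.91 and 4.26, at least 43.6-fold lower on day 3, where it lay below the bacterial controls. Mmp13, a collagenase, read 6.89, 3.34, 4.17 and 5.82, at least 5.80-fold lower. With values below 6 set to 6, Mmp13 differs by under 2-fold. Timp1, an inhibitor of such proteases, was lower too (9.62 to 8.11), whereas Plat, tissue plasminogen activator, was higher (7.70 to 9.31). The other 11 of the 15 matrix protease and inhibitor genes above the floor stayed under 2-fold, among them Mmp14 (-0.47) and Timp2 (0.97).

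Chemokines and cytokines split. Of 19 above the floor, 8 were lower and 4 higher. Ccl2, the monocyte chemokine MCP-1, read 10.76, 5.001, 3.96 and 6.32, a difference of -5.76. Cxcl1, a neutrophil chemokine, read 10.52, 7.45, 6.27 and 7.75. Csf2, which encodes GM-CSF, fell from 7.36 to 4.09, at least 8.04-fold, and Ccl7 from 6.44 to 3.57, at least 4.24-fold. Csf3, which encodes G-CSF, fell from 9.84 to 8.37, Ccl27 from 8.29 to 5.63 and Ptgs2, the cyclooxygenase COX-2, from 12.06 to 10.94. Going the other way, Ptges, the prostaglandin E synthase that acts after cyclooxygenase, rose from 7.91 to 9.92. Cxcl10 rose from 4.98 to 6.75, Il36b from 6.59 to 8.06 and Il24 from 11.20 to 12.49. Cxcl10 and Il24 were back at 4.62 and 11.04 on day 9. Of 20 NF-kappaB factors and feedback genes above the floor, 2 were lower and 1 higher, with a median of -0.02. Tnfaip3, which encodes A20, fell from 8.74 to 7.39. Zc3h12a fell from 7.54 to 6.51, or by under 2-fold centred on the housekeeping list. Bcl3 rose from 6.74 to 8.23, or by 0.92 as the mean over its probe sets.

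The 5 promoters below, of genes among the 25 largest decreases, hold a match to the AP-1 search pattern TGANTCA, with the match in capitals. In it N stands for any base, so the pattern reads the same on both strands. The N is T in Ccl7 and G or C in the other promoters printed, and the counts below take any base.
Mmp3: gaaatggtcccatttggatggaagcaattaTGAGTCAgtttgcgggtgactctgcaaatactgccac
Mmp13: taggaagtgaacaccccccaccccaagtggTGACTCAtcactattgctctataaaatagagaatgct
Ccl7: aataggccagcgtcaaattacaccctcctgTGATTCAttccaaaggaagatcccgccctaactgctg
Gbp2: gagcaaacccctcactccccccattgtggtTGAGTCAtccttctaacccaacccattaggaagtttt
Cyp26b1: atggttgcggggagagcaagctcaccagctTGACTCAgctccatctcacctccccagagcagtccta
In RefSeq's GRCr8 table these are chr8:12925180-12925246, chr8:12782733-12782799, chr10:67513992-67514058 and chr2:234005625-234005691 on the plus strand and chr4:118616286-118616352 on the minus strand. The matches begin at -71, -66, -73, -72 and -146 from each start. Gbp4 also held one, at -34, and Lama3 held them at -240, -92 and -36. That is 7 of the 23 promoters in the table for the 25 largest decreases (30.4%), 0 of 15 for the 25 largest increases, 39 of 292 (13.4%) for all higher genes and 14 of 154 (9.09%) for all lower genes. Of promoters of genes above the floor 4.98% held it, and 7.33% of all 27457. A match is a description of the letters in this window and not of binding.

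Of the interferon-inducible GTPase genes, Gbp2 and Gbp4 were lower and Mx2 was higher. Gbp2 read 10.35, 7.64, 6.08 and 5.91, and Gbp4 read 7.73, 4.98, 3.26 and 3.92. Irf1, a transcription factor of the interferon response, fell from 7.83 to 6.58, and Psmb10, an immunoproteasome subunit, from 6.84 to 5.75. Mx2 rose from 7.90 to 10.59. In all, 4 of the 23 interferon genes above the floor were lower and 1 higher, or 5 and 1 centred on the spike-ins, and 1 and 1 of 11 with a floor of 8.

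Of 26 TGF-beta, BMP and SMAD response genes, 3 were lower and 0 higher. Pmepa1, which restrains SMAD signalling, had the third largest decrease of all genes, from 10.87 to 6.04, and read 8.37 and 9.42 on days 6 and 9. Id2, a BMP target, fell from 8.24 to 6.71, and Inhba, the activin A subunit, from 10.36 to 9.23. The other probe sets of Id2 and Inhba differed by -1.44 and -1.0025. No gene of 24 YAP targets and 17 Notch genes was called, and Notch1 differed by -0.88 (9.70 to 8.82).

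Of 14 mesenchymal and matrix genes above the floor, 4 were lower and 1 higher, or 6 and 1 centred on the spike-ins. Their median was -0.56, but -0.12 with no floor, -0.25 with a floor of 5 and -0.27 as means over probe sets. Vim, the intermediate filament vimentin, read 10.58, 8.53, 6.51 and 6.95, Emp3 fell from 11.35 to 9.35, Fn1, fibronectin, from 11.92 to 10.88 and Col5a1 from 8.45 to 7.07. Col8a1, a short-chain collagen, rose from 4.88 to 6.42. Among 25 actin contractile and stress fibre genes 5 were lower, 0 were higher and 23 were below 0, with a median of -0.54; 3 were lower as means over probe sets, centred on the housekeeping list or with a floor of 8. Lcp1, the actin bundler L-plastin, fell from 6.56 to 3.73, at least 4.61-fold, and the bundler gene Fscn1 from 7.91 to 5.77. Flna, filamin A, fell from 11.32 to 10.29. As a mean over probe sets Fscn1 differed by -0.96, Tes by -0.95 and Tpm1 by -0.34, all under 2-fold.

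Basal adhesion genes divided by protein. Lama3 and Lamb3, chains of laminin-332, which anchors basal cells, fell from 10.03 to 7.77 and from 12.16 to 11.12. The integrin genes that bind it stayed under 2-fold: Itga6 differed by -0.23, Itgb4 by -0.35 and Itga3 by 0.26. Itgb6, an integrin subunit of wounded epithelia, fell from 9.66 to 7.54. Of the 17 basal layer genes, 2 were lower and 0 higher.

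Growth-related genes shifted little but broadly. A lean below 0 was not confined to them: the housekeeping list had 13 of 16 genes below 0, with a median of -0.08. None of 54 DNA replication and S phase genes was 2-fold apart, yet 46 were below 0, with a median of -0.30. Mcm7, a subunit of the replicative helicase, had the largest difference of them, from 11.02 to 10.20. Mitosis genes were split, 24 above and 26 below 0, with Mki67 at 9.61 on both days and Cdc25b, a phosphatase that starts mitosis, higher (7.94 to 9.20). Of 52 ribosome biogenesis and MYC genes, 50 were below 0 with a median of -0.49, and 1 was lower, Cad, of pyrimidine synthesis (8.82 to 7.68, and -0.59 as the mean over its probe sets). Myc differed by -0.09. Proteasome genes had 32 of 34 below 0 (median -0.31) and respiratory chain genes 45 of 55 (median -0.17), while the 40 cytosolic ribosomal protein genes had a median of 0.00, or -0.14 centred on the spike-ins. None of 25 p53 genes was called, and Mdm2 differed by -0.16. Total RNA per cell was not measured, and fewer cells of a type and less RNA per cell cannot be told apart.

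**Figure D4:**
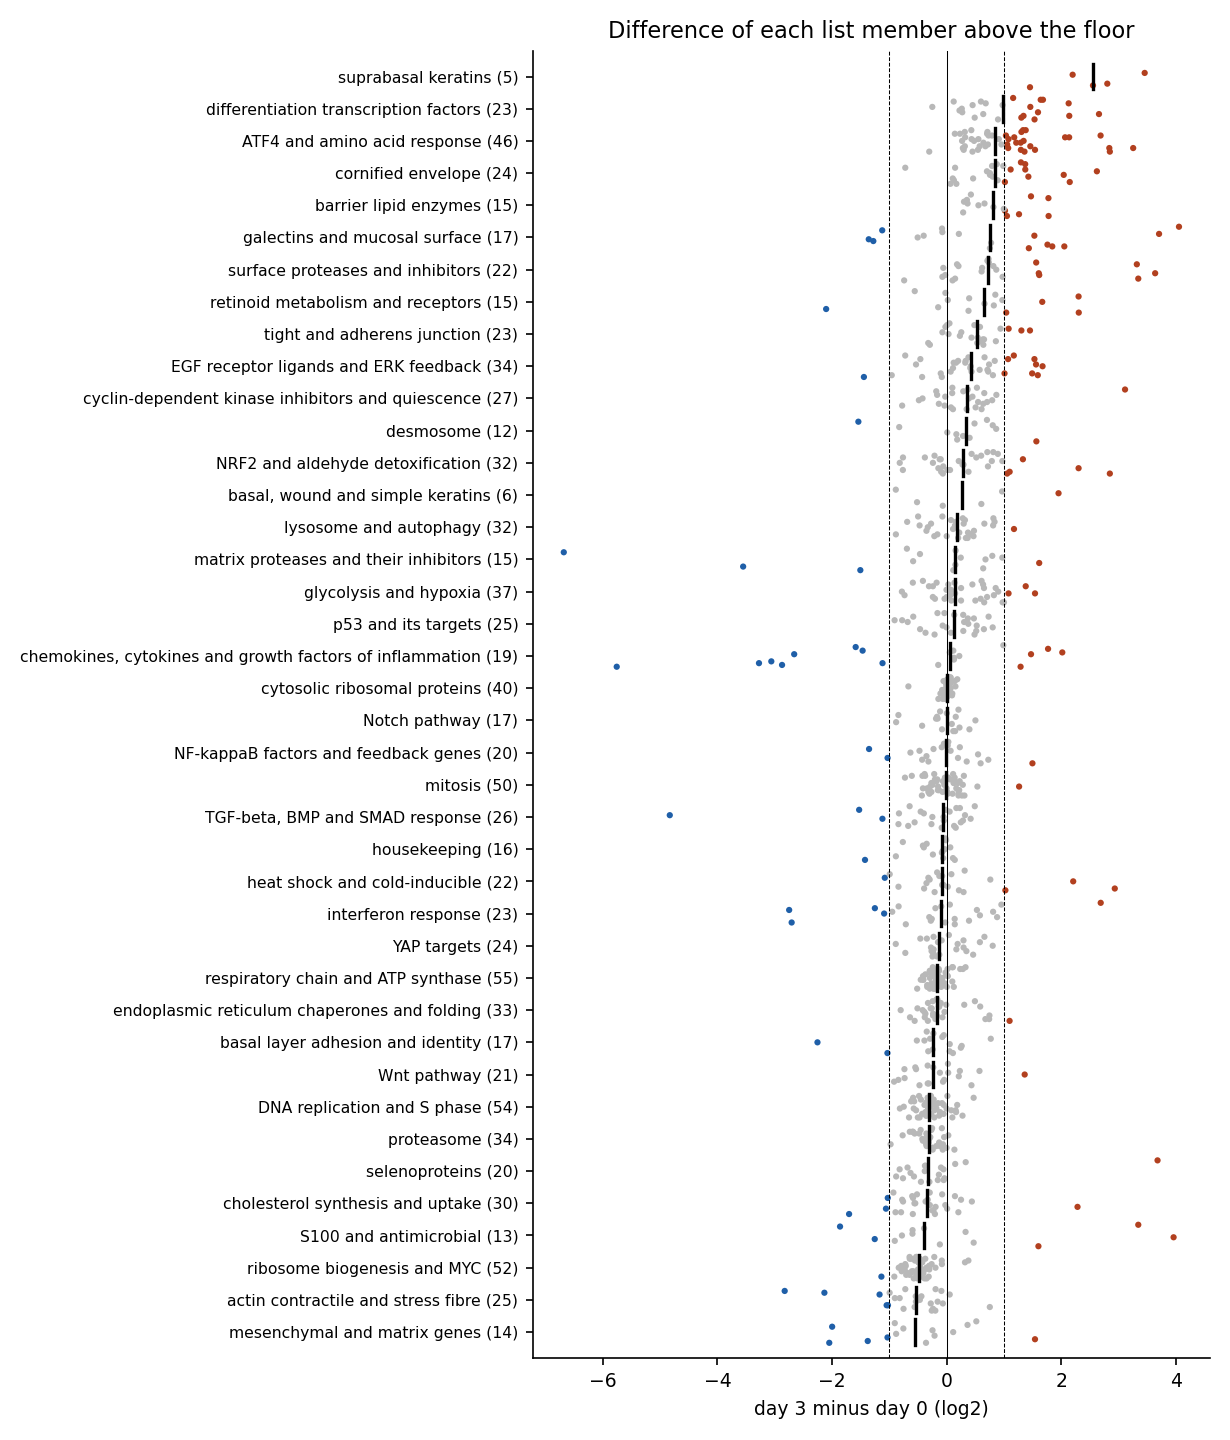
Day 3 minus day 0 difference (log2) of every member above the floor in 40 gene lists, ordered by the list's median (black bar), with the number of members in brackets. Red and blue points are 2-fold or more higher or lower; all 5 suprabasal keratins are red, 21 of 46 ATF4 genes are red with none blue, and the ribosome biogenesis and S phase lists lie left of 0 with few or no points past 2-fold.

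Temperature genes gave a mixed record. Cirbp and Rbm3, RNA-binding proteins known to be induced by mild cold, read 8.83 and 13.11 on day 0 and 7.75 and 12.27 on day 3. Cirbp was lower by 2-fold or more on all 3 of its probe sets, and Rbm3, at -0.84, was not called. The heat shock genes Cryab, Hspa4l (6.08 to 8.28) and Hspb8 (9.97 to 10.996) were higher. The classical chaperone genes Hsp90ab1 (-0.35), Hspd1 (-0.32), Hsph1 (-0.13) and Dnajb1 (0.02) stayed close to their control level. Dnajb4, another member of the list, fell from 10.64 to 9.65, a difference of -0.996 and just short of 2-fold. In all, 3 of 22 genes were higher and 1 lower, or 2 and 2 centred on the spike-ins.

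In the metabolic lists most genes stayed under 2-fold. The counts here stand beside 4.31% higher and 2.15% lower of all genes above the floor, and most of them exceed these shares. Cholesterol genes were lower in 3 of 30 cases, or 5 centred on the spike-ins and 1 centred on the housekeeping list, and 24 were below 0. Abcg1, a sterol exporter, fell from 9.63 to 7.93, and the mevalonate enzymes Mvk and Mvd from 9.01 to 7.95 and from 8.79 to 7.77, although Mvk differed by -0.65 as the mean over its probe sets. Fads1, a fatty acid desaturase, was higher and read 5.60, 7.88, 5.20 and 3.72. Of 32 NRF2 and detoxification genes 5 were higher, or 3 centred on the spike-ins, among them Aldh3a1 (8.14 to 9.47) and Hmox1, heme oxygenase-1 (10.84 to 11.93). Of 37 glycolysis and hypoxia genes 3 were higher, Vegfa (10.06 to 11.13) and the stress genes Ddit4 and Ero1a, which are also in the ATF4 list. Centred on the spike-ins, 2 of the 37 were higher. Tfrc, the transferrin receptor gene and a member of the housekeeping list, fell from 12.22 to 10.79.

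The 40 lists hold 105 of the 379 higher genes and 45 of the 189 lower ones, so most called genes belong to none. Among the 25 largest increases outside them are Rnase1l2 (6.82 to 10.15), Tcim (6.45 to 9.53), Fut1, a fucosyltransferase (4.99 to 7.98), Kcnj12, a potassium channel (3.85 to 6.72), and Syt16, a synaptotagmin (4.44 to 7.36). Tmem86a rose from 4.56 to 7.63, but its other probe set differed by 0.63. Among the largest decreases are Dact2, a regulator of Wnt and TGF-beta signalling (7.26 to 4.55), Rab32, a GTPase of vesicle traffic (8.38 to 5.94), Tm4sf1, a tetraspanin-like surface protein (6.99 to 4.78), and Cdc42ep5, an effector of CDC42 (10.13 to 8.04).

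Days 6 and 9 share no array with the day 3 against day 0 comparison, apart from their part in choosing probe sets and in the floor. The beta-actin quality probes of these later arrays were less alike, with a 3' to 5' difference of 1.22 on day 6 and 2.35 on day 9. For GAPDH it was -0.02 and 0.18. The part of RNA quality in the last step was not tested. From day 6 to day 9 the 379 higher genes had a median difference of -0.23 and the 189 lower genes 0.35, against 0.05 for all genes. Of the higher genes 34 (8.97%) were 2-fold lower on day 9 than on day 6 and 0 higher, against 0.591% lower of all genes. Of the lower genes 11 (5.82%) were 2-fold higher and 1 lower, against 0.25% higher of all. The median level of each group thus moved back toward its day 0 level over the last step, from 8.91 to 8.66 for the higher genes and from 6.59 to 6.95 for the lower ones. In the ATF4 list 43 of 46 genes were below 0 from day 6 to day 9, all 21 higher members included, and 9 of those were 2-fold lower. S100g differed by -1.69 over that step and Nptx1 by -2.37, while Krt13 differed by 0.36 and Slpi by 0.49.

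**Figure D5:**
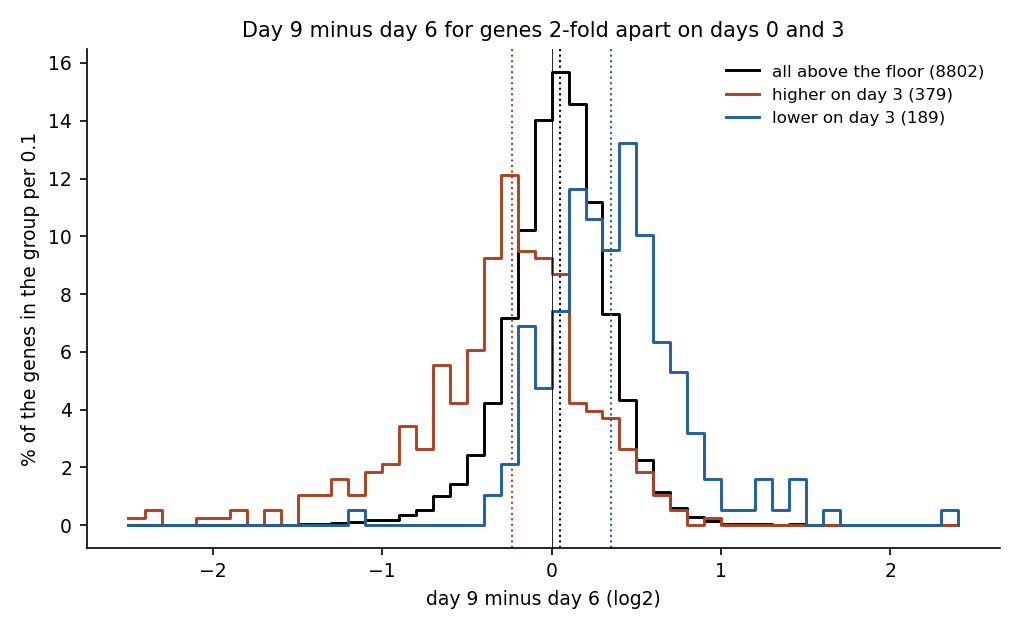
Distribution of the day 9 minus day 6 difference (log2, x axis) as a percentage of genes per bin of 0.1 (y axis) for all 8802 genes above the floor, the 379 higher and the 189 lower on day 3. Dotted lines are the medians, 0.05, -0.23 and 0.35.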

How the data were processed

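Total RNA of ROE2 cells from 4 days was hybridised to 1 array each, and grouped by the labelled time point. Per the submitters' processing notes the authors used RMA, and the deposited values are on a log2 scale, as their range shows. RMA's version and settings: not given in the sources used here. RMA gives all arrays nearly 1 distribution, so a shift of most genes together is largely removed. The number of arrays limits the precision.

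Of 31099 probe sets (57 controls), 20832 have 1 symbol in the platform annotation, which can be old, 436 have several and 9831 have none. RefSeq's GRCr8 table held the Entrez identifier of 20764. Each gene was represented by its probe set of highest mean across the 4 arrays. Differences are plain subtractions of log2 values, with no test. Named genes are the 25 largest in each direction, up to 6 of each list with the largest size, genes nearest the thresholds and genes that belong with a named one. Background was judged from 27 bacterial control probe sets. Of these the brightest read 4.19 on day 0 and 4.36 on day 3. The 40 gene lists, 7 marker lists, the roles within the ATF4 list and the motifs were chosen with earlier results of these data known. Summed marker levels are log2 of the sum of linear values. Scripts ran under Python 3.11.15 (numpy 2.4.6; pandas 2.3.3; matplotlib 3.10.9 for figures). The alternatives were other floors, other ways to choose or average probe sets, 3 centrings, values below 6 set to 6, other thresholds and list means.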

Additional observations from a re-analysis of the deposited data

Results flagged for a closer look

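Probe sets for which the annotation gives no gene symbol were used in no comparison above. Of 9780 such probe sets outside the controls, 2375 (24.3%) were above the floor, and among these 133 (5.6%) were higher on day 3 than in the day 0 control by 2-fold or more and 81 (3.41%) were lower. The probe sets 1398090_at (5.06 to 8.16) and 1384393_at (4.53 to 7.48) rose most, and 1389809_at (9.88 to 5.97) and 1394109_at (10.49 to 6.63) fell most. On day 9 the latter pair read 7.83 and 8.05. Their genes are not named here.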

How the results depend on the processing

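With 1 array per day nothing could be left out, and no paired analysis was possible because each day has 1 array and the labels give no replicate numbers. The count of 379 higher genes was 284 to 445 under no floor, floors of 5 and 8, the floor on days 0 and 3 only, both other probe set rules, the 3 centrings and values below 6 set to 6; it was 894 at 1.5-fold and 125 at 3-fold. The count of 189 lower genes was 114 with a floor of 8, 302 centred on the spike-ins, 883 at 1.5-fold and 47 at 3-fold, and 147 to 236 under the others. Lower genes were 51.5% of those called centred on the spike-ins and 24.8% centred on the housekeeping list, against 33.3%. The S100 and antimicrobial list, with a median of -0.40, had a mean of 0.24 over its members, which include S100g. No other list median that was at least 0.17 from 0, the median gap between probe sets of 1 gene, changed sign. Of 173 genes past 2-fold that are in a list or among the 25 largest, 11 were under 2-fold as the mean over their probe sets, 1 with plain probe sets only, 17 centred on the spike-ins (among them Chac1, Slc7a5, Sars1, Adh7, Hmox1, Hspb8 and Vegfa), 7 centred on the housekeeping list, 19 with values below 6 set to 6 (among them Krt1, Klk8, Elf5, Cyp2s1, Dsc1, Vldlr, Kcnj12, Col8a1, Cxcl10, Ccl7, Lcp1, Tm4sf1 and Psmb10) and 0 under the floors and the median centring; none changed direction. Differences between values below 6 have little signal over background.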

Other observations

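S phase genes, which barely moved on day 3, carry the E2F letters more often than other genes do. The pattern TTTNNCGC, searched on both strands, was in 23 of 46 promoters of the DNA replication and S phase list, against 9.17% of genes above the floor and 5.19% of all 27457 promoters. It was in 13 of 292 promoters of the higher genes (4.45%) and 15 of 154 of the lower genes (9.74%). The CCAAT box was in 34 of 44 promoters of the mitosis list (77.3%) and 24 of 26 of the endoplasmic reticulum list (92.3%), against 38.3% of genes above the floor, and in 39.0% of the higher and 36.4% of the lower genes. These 2 lists had medians of -0.02 and -0.18 on day 3. The TEAD letters GGAATG were in 13.7% of the higher and 9.74% of the lower genes against 819 of the 7424 genes above the floor, and the cyclic AMP element TGACGTCA in 1.71% and 3.9% against 3.54%. These shares describe letters in a 300-base window and are given without a test.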
